A study of Homo sapiens with 8 samples.

Results

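The metallothionein genes of Huh7 cells, a human hepatocellular carcinoma line, were followed together with MTF1, the transcription factor that drives them. The genes were chosen by symbol: MT1E, MT1F, MT1G, MT1H, MT1M, MT1X, MT2A and MTF1. Of these 8 symbols, 7 were matched among 17076 genes, 6 of them metallothioneins, and MT1H was not analysed here. The mRNA of 4 groups of 2 libraries was sequenced. siControl cells received a control siRNA and siUPF1 cells an siRNA against UPF1, an RNA helicase required for nonsense-mediated mRNA decay. MYC cells carried the control vector, named MYC by the study, and MYC-UPF1 cells carried that vector with UPF1. All 4 groups were Huh7 cells, and no source states that the 2 libraries of a group came from separate cultures, so each p-value measures the spread between libraries, which may be technical.

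Metallothioneins are small, cysteine-rich proteins that bind zinc and copper and also trap cadmium. The liver is among their main sites of synthesis. When free zinc rises, MTF1 binds it through its zinc fingers, enters the nucleus and activates genes whose promoters carry metal response elements. Besides the metallothioneins, these targets include the zinc exporter SLC30A1, so a rise in zinc is met by storage and export.

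The coding sequences of MT2A, MT1E and MT1X are shown because they hold most of the metallothionein mRNA in these cells and because their likeness bears on how far the reads can be told apart. Capitals mark the codons for cysteine.
MT2A: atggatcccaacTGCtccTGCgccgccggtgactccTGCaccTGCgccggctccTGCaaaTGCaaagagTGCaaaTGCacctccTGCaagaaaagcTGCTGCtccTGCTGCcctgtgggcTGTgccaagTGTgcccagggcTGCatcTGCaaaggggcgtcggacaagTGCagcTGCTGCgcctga
MT1E: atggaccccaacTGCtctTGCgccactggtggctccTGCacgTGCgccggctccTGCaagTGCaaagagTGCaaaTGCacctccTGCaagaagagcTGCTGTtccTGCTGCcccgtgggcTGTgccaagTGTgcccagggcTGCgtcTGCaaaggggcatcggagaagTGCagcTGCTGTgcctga
MT1X: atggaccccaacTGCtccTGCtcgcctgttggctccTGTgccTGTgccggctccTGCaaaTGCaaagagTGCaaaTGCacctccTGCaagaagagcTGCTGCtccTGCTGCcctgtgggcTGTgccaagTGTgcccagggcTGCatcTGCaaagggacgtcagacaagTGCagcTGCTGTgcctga
Each of the 3 sequences is 186 bases long with its stop codon and has 20 cysteine codons among 61 residues. In GENCODE 44 on GRCh37 the metallothionein genes lie on chromosome 16, with MT2A at chr16:56642496-56643409, MT1E at chr16:56659387-56661024 and MT1X at chr16:56716382-56718108, all on the plus strand. MT1M lies at chr16:56666571-56667893 and MT1F at chr16:56691643-56694610, also on the plus strand. MT1G lies at chr16:56700642-56701977 on the minus strand. MTF1 lies elsewhere, at chr1:38275246-38325264 on the minus strand.

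Coding identity between members of equal length ranged from 88.7% for MT1F with MT1X to 93% for MT1H with MT1E and with MT1X. The share of 50-base stretches of a transcript found exactly in another gene was 5.34% for MT1E, 6.12% for MT1F, 11.1% for MT2A, 14.6% for MT1M, 19.9% for MT1G and 51% for MT1X. At 100 bases the share was 0% for the other genes and 22% for MT1X, whose stretches also lie in the overlapping gene ENSG00000259827. Reads were sequenced in pairs of 100 bases each and then trimmed, so the 50-base shares bear on reads cut shorter. How shared reads were assigned is not given in the sources used here. Levels of MT1X, MT1G and MT1M are therefore uncertain for shorter reads. At 100 bases MT1X shared stretches with that overlapping gene alone, which is also among the genes behind its 51%. Such stretches bear on which of the overlapping genes a read was counted for. Whether the annotation behind the deposited values lists that gene was not checked.

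The 250 bases upstream of the RefSeq start are shown for MT2A and MT1X, the metallothioneins analysed here that had an entry among the promoters searched. Whether the matches bear on the levels was not tested. Capitals mark each match to the core of the metal response element, searched on both strands as TGCACNC and TGCGCNC.
MT2A: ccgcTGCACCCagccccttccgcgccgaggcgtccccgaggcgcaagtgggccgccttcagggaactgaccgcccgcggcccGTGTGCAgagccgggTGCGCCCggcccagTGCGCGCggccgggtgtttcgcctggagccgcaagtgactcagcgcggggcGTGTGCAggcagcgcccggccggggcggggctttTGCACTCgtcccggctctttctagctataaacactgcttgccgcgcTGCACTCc
MT1X: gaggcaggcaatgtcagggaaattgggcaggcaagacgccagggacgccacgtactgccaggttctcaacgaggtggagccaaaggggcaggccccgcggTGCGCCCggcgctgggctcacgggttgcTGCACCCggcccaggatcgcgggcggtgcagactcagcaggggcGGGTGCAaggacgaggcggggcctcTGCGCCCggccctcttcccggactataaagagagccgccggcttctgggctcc
These bases come from the RefSeq promoter table of GRCh38.p14 and matched GRCh37 exactly once on their chromosome, at chr16:56642246-56642495 and chr16:56716132-56716381, both on the plus strand. MT2A had 7 matches and MT1X had 4, with none overlapping another. Of 35116 promoters in that table, 24.8% had at least 1 match, 0.37% at least 4 and 0.0313% at least 7. The MTF1 window, at chr1:38325265-38325514 on the minus strand, had 0 matches. The MT1H window had 8. MT1E, MT1F, MT1G and MT1M had no entry in the table.

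UPF1 itself was measured first. Its mean level was 45.93 ± 2.06 FPKM in siControl and 21.29 ± 0.839 FPKM in siUPF1 (SD, n = 2), and 51.26 ± 8.65 FPKM in MYC and 2659 ± 248 FPKM in MYC-UPF1 (SD, n = 2). FPKM scales fragments to transcript length and to the mapped total, so levels of different genes can be compared per length. All 12 hepatocyte markers were listed, with ALB between 6550 and 8371 FPKM. Of 12 markers of other cell types 6 were listed, and their summed level without LYZ was 5.136 to 6.264 FPKM over the 8 libraries, while LYZ itself stood at 160.3 to 227 FPKM. In the profile of all genes, MYC replicate 1 correlated more closely with MYC-UPF1 replicate 2 (r = 0.9977) than with MYC replicate 2 (r = 0.9961). Likewise MYC-UPF1 replicate 1 was closer to MYC replicate 2 (r = 0.9974) than to its own replicate (r = 0.9959). Also, siUPF1 replicate 1 was closer to siControl replicate 2 (r = 0.9953) than to siUPF1 replicate 2 (r = 0.9942). Both siControl libraries and siUPF1 replicate 2 were closest to their own replicate. Depth is unknown, since the files hold FPKM without counts.

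Metallothionein mRNA was abundant in Huh7 cells and far higher in the siRNA libraries than in the plasmid libraries. The summed level of the 6 genes was 374.1 and 389.1 FPKM in siControl and 325.8 and 330.9 FPKM in siUPF1. It was 96.54 and 123.5 FPKM in MYC and 96.77 and 72.57 FPKM in MYC-UPF1. All 4 siRNA libraries lay above all 4 plasmid libraries for 6 of 6 metallothioneins, which was the case for 21.4% of all genes tested. In bulk RNA, fewer cells expressing a gene and less RNA per cell cannot be told apart.

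MT2A, the most abundant isoform, had 180 and 189 FPKM in siControl, 159 and 168 FPKM in siUPF1, 43.3 and 58.2 FPKM in MYC, and 45.1 and 30.7 FPKM in MYC-UPF1. MT1E had 91.5 and 90.5 FPKM in siControl, 74.8 and 74.3 FPKM in siUPF1, 23.2 and 25.0 FPKM in MYC, and 21.2 and 18.2 FPKM in MYC-UPF1. For MT1E the order of the groups was siControl, siUPF1, MYC and MYC-UPF1, with no overlap between neighbours, whereas for MT2A the last 2 groups overlapped.

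MT1X had 49.9 and 53.3 FPKM in siControl, 43.9 and 45.3 FPKM in siUPF1, 17.4 and 23.2 FPKM in MYC, and 16.6 and 13.6 FPKM in MYC-UPF1. MT1F had 41.7 and 42.3 FPKM in siControl, 39.1 and 33.1 FPKM in siUPF1, 10.6 and 13.8 FPKM in MYC, and 10.6 and 8.51 FPKM in MYC-UPF1. Both followed the same order of group means, and the MYC and MYC-UPF1 libraries overlapped for MT1F but not for MT1X.

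The remaining isoforms were scarce. MT1M had 6.18 and 8.98 FPKM in siControl, 5.77 and 5.27 FPKM in siUPF1, 1.24 and 1.69 FPKM in MYC, and 1.44 and 0.993 FPKM in MYC-UPF1. MT1G had 5.14 and 5.45 FPKM in siControl, 3.73 and 5.31 FPKM in siUPF1, 0.927 and 1.64 FPKM in MYC, and 1.82 and 0.641 FPKM in MYC-UPF1. MT1G libraries overlapped between siControl and siUPF1 and between MYC and MYC-UPF1, and MT1M libraries overlapped between the latter pair.

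MTF1 did not share this pattern. It had 3.69 and 3.59 FPKM in siControl, 3.40 and 3.08 FPKM in siUPF1, 3.06 and 3.62 FPKM in MYC, and 3.57 and 3.82 FPKM in MYC-UPF1, so that siRNA and plasmid libraries overlapped. By group mean the order was MYC-UPF1, siControl, MYC and siUPF1. MYC overlapped with each of the other groups.

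**Figure D1:**
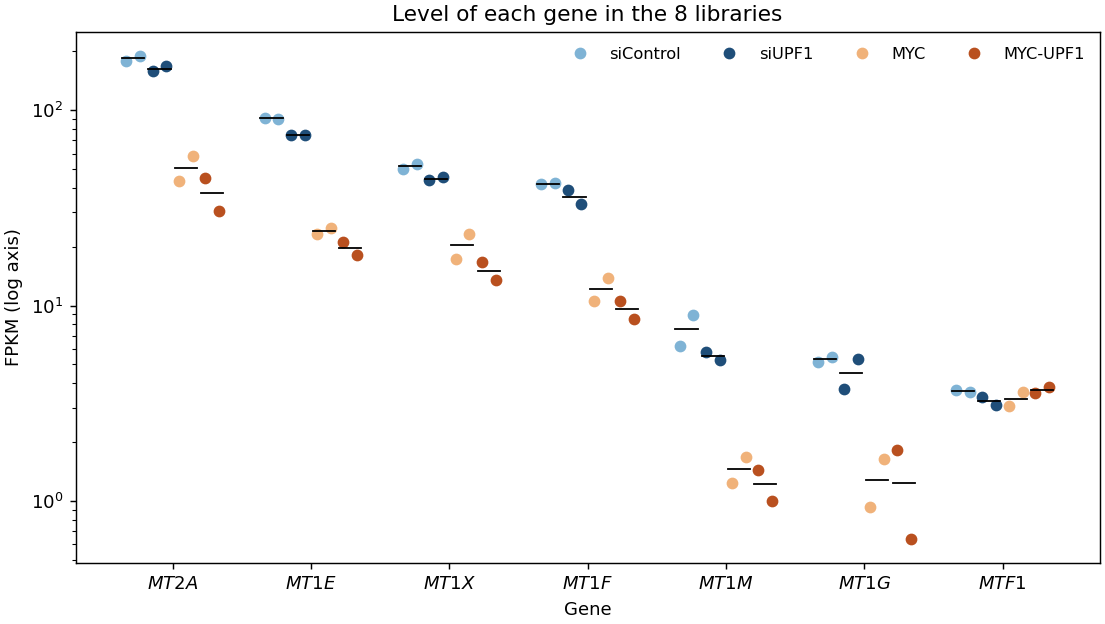
FPKM (log axis) of the 7 genes in the 8 libraries. Points are libraries coloured by group and black lines are group means of 2. For each metallothionein the 4 siRNA libraries lie above the 4 plasmid libraries, from 158.5 to 188.7 against 30.65 to 58.2 FPKM for MT2A, while MTF1 lies between 3.062 and 3.816 FPKM throughout.

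The largest change in these genes lay between the 2 control groups, MYC and siControl. This comparison was not the aim of the study, and the kind of transfection, the nucleic acid delivered and the experiment cannot be told apart in it. Differences are given on the scale of log2(FPKM + 1), tested in limma and called at an unadjusted p of 0.05, with Benjamini-Hochberg adjusted p over all genes tested beside it. The added 1 understates the change of low genes.

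Of the 7 genes, 6 fell and 0 rose from siControl to MYC, and all 6 also passed an adjusted p of 0.05 in limma. Among all 13359 genes tested, 25.6% fell, 15.4% rose and 29.1% passed the adjusted threshold in either direction. The median difference of the 6 metallothioneins was -1.75, against -0.057 for all genes, of which the lowest 5% lay below -0.50. Over all genes the calls, 2052 higher and 3416 lower, became 2763 and 2709 with quantile normalization, 3180 and 2276 with median centring, and 2429 and 2499 after loess correction for GC content and length, while the same 6 members fell in each.

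MT1E changed by -1.88 (SE 0.0947, limma adjusted p = 3.57e-11), and its mean level was 3.78-fold higher in siControl than in MYC. MT2A changed by -1.85 (SE 0.109, limma adjusted p = 2.68e-10), a 3.63-fold ratio of mean FPKM. These are the pair with the highest levels, and they changed by nearly the same amount.

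MT1M changed by -1.79 (limma adjusted p = 2.78e-08), MT1F by -1.72 (limma adjusted p = 2.22e-09) and MT1G by -1.48 (limma adjusted p = 1.78e-07). The ratio of mean FPKM, siControl over MYC, was 5.19 for MT1M, 3.45 for MT1F and 4.13 for MT1G. On this linear scale, where no pseudocount enters, MT1M had the highest ratio. That of MT1G rests on MYC libraries of 0.927 and 1.64 FPKM, and its place in the order depends on the lower one.

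MT1X changed least among the 6, by -1.32 (SE 0.116, limma adjusted p = 1.06e-07), a 2.54-fold ratio of mean FPKM. Its 95% interval, -1.56 to -1.08, did not overlap with that of MT1E, -2.07 to -1.68, or of MT2A, -2.08 to -1.63. The MT1X interval did overlap with those of MT1F, -1.95 to -1.48, MT1M, -2.08 to -1.49, and MT1G, -1.76 to -1.20. MT1X is also the gene with the most sequence shared with others, counting the gene that overlaps it, and the part of this in its smaller change was not tested.

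MTF1 changed by -0.10 (95% interval -0.35 to 0.15, limma adjusted p = 0.551). Both MYC libraries lay below both siControl libraries for all 6 metallothioneins but not for MTF1, where MYC replicate 2 lay between the siControl libraries. The first was the case for 41.3% of all genes tested.

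**Figure D2:**
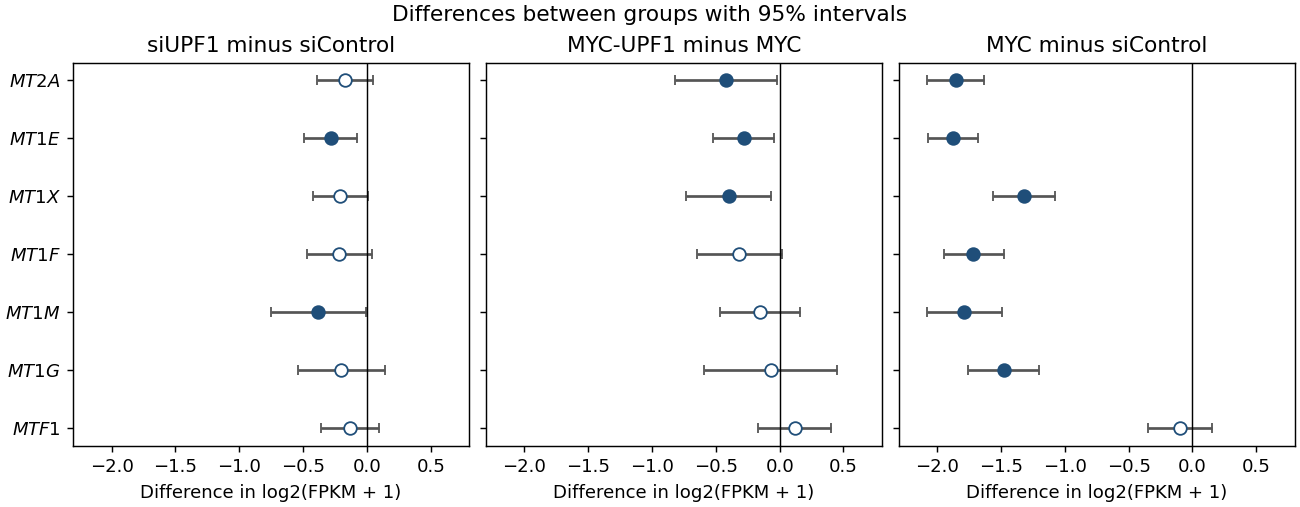
Difference in log2(FPKM + 1) for each gene in 3 comparisons, with 95% intervals from limma. Filled points passed an unadjusted p of 0.05. The 6 metallothioneins lie between -1.88 and -1.32 for MYC against siControl and between -0.42 and -0.068 in the other comparisons, and MTF1 spans 0 in all 3.

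The makeup of the metallothionein mRNA differed accordingly between the siRNA and plasmid libraries. Shares come from the same levels, in which MT1X changed least between the control groups, and are not separate evidence. MT1X made up 13.4% to 13.7% of the summed FPKM in the 4 siRNA libraries and 17.2% to 18.8% in the 4 plasmid libraries, with no overlap. MT2A made up 48.2% ± 0.34 in siControl, 49.7% ± 1.4 in siUPF1, 46% ± 1.6 in MYC and 44.4% ± 3.1 in MYC-UPF1 (SD, n = 2). MT1E held between 20.2% and 25.1% and MT1F between 10% and 12% in every library. Between 2 groups of 2 libraries no exact permutation test of a share can go below p = 0.333, and the 4 siRNA and 4 plasmid libraries, which pool different treatments, were not tested against each other.

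**Figure D3:**
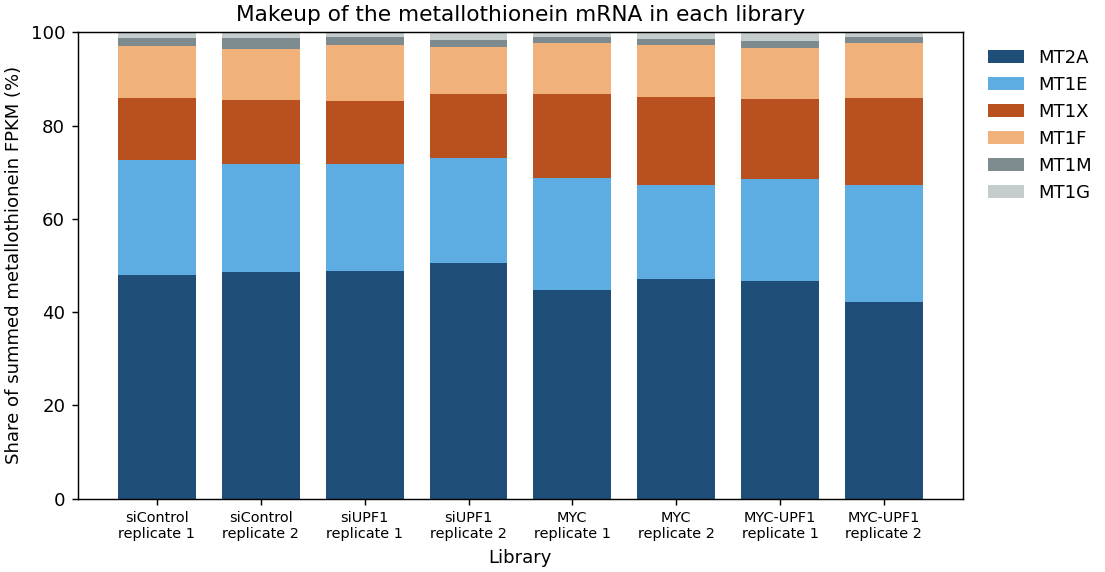
Share of each isoform in the summed FPKM of the 6 metallothioneins, 1 bar per library. MT2A is the largest share in all 8 libraries, and the MT1X share is 13.4% to 13.7% in siRNA libraries and 17.2% to 18.8% in plasmid libraries.

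Depletion of UPF1 went with slightly lower metallothionein mRNA. The mean sum was 381.6 ± 10.6 FPKM in siControl and 328.4 ± 3.6 FPKM in siUPF1 (SD, n = 2). Of the 7 genes, 2 fell and 0 rose, against 5.51% of all 13535 genes that fell and 16.0% that rose. In limma 0 of the 7 passed an adjusted p of 0.05, a threshold that 0.0369% of all genes passed. The median of the 6 metallothioneins was -0.21, with a median of 0.057 over all genes. Calls over all genes, 2162 higher and 746 lower, became 1417 and 1408 with quantile normalization, 1602 and 1271 with median centring, and 1416 and 1491 after the GC and length correction.

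The 2 that fell were MT1E, by -0.28 (SE 0.0876, limma adjusted p = 0.149), and MT1M, by -0.38 (SE 0.158, limma adjusted p = 0.23). MT1M became -0.14 without siControl replicate 2 and -0.62 without siControl replicate 1. The others had differences of -0.22 for MT1F, -0.21 for MT1X, -0.20 for MT1G, -0.17 for MT2A and -0.13 for MTF1, and did not pass the unadjusted threshold. Both siUPF1 libraries lay below both siControl libraries for 6 of the 7 genes, all but MT1G, as they did for 18.5% of all genes.

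The number that fell depended on scaling, and the differences depended on single libraries. The number was 4 with quantile normalization, 5 with median centring and 7 after the GC and length correction. Without siUPF1 replicate 1 the difference was -0.33 for MT1F and 0.0045 for MT1G. Without siUPF1 replicate 2 it was -0.10 for MT1F and -0.41 for MT1G.

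Overexpression of UPF1 gave differences of the same sign for the 6 metallothioneins. The mean sum was 110 ± 19.1 FPKM in MYC and 84.67 ± 17.1 FPKM in MYC-UPF1 (SD, n = 2). Of the 7 genes, 3 fell and 0 rose, with 0.807% of all 13251 genes falling and 0.619% rising. In limma 0 of the 7 passed the adjusted threshold, and 0.00755% of all genes did. The median of the metallothioneins was -0.30, against -0.014 over all genes. The 82 higher and 107 lower calls over all genes became 207 and 167 after the GC and length correction.

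MT2A fell by 0.42 (SE 0.178), MT1X by 0.40 (SE 0.147) and MT1E by 0.28 (SE 0.107), each with a limma adjusted p of 1. The largest of these falls, that of MT2A, no longer passed the unadjusted threshold with quantile normalization, median centring or the GC and length correction (-0.41 in each), while MT1X and MT1E did. Leaving out 1 library at a time moved MT2A between -0.69, without MYC-UPF1 replicate 1, and -0.15, without MYC-UPF1 replicate 2, and MT1E between -0.39 and -0.18 for the same 2 libraries. MT1X moved between -0.60 without MYC replicate 1 and -0.20 without MYC replicate 2. MT1F had a difference of -0.32 (95% interval -0.65 to 0.018), which became -0.49 without MYC replicate 1 and -0.14 without MYC replicate 2, MT1M of -0.15, MT1G of -0.068 and MTF1 of 0.12. Both MYC-UPF1 libraries lay below both MYC libraries for MT1E and MT1X, 2 of the 7 genes, and for 11.8% of all genes.

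Within each plasmid group the 2 libraries differed in the same sense for all 6 metallothioneins, which were read from the same libraries and are not separate evidence. MYC replicate 2 was above MYC replicate 1, and MYC-UPF1 replicate 2 was the lowest of the 4 plasmid libraries. The sum differed 1.28-fold between the MYC libraries and 1.33-fold between the MYC-UPF1 libraries, compared with 1.04-fold in siControl and 1.02-fold in siUPF1. MYC replicate 1 and MYC-UPF1 replicate 1 had almost the same sum. Without MYC-UPF1 replicate 2 the difference after overexpression was -0.15 for MT2A, -0.18 for MT1E and 0.32 for MT1G. Without MYC-UPF1 replicate 1 it was -0.69, -0.39 and -0.46. For MT1X and MT1F it was -0.20 and -0.14 without MYC replicate 2, and -0.60 and -0.49 without MYC replicate 1.

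The depletion and overexpression effects were set against each other in a fit of all 8 libraries. Of the 7 genes, 0 passed an unadjusted p of 0.05 in limma, with 11.8% of all 13412 genes higher and 3.40% lower in the depletion effect. These 1585 higher and 456 lower calls became 1024 and 907 with quantile normalization, 1107 and 776 with median centring, and 990 and 1042 after the GC and length correction. The difference of effects was -0.0015 for MT1E (95% interval -0.29 to 0.29) and 0.25 for MT2A (95% interval -0.30 to 0.79). For MTF1 it was -0.25 (95% interval -0.58 to 0.09). These intervals include differences as large as the effects themselves.

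Of 9 other metallothionein genes and pseudogenes, 2 were listed. MT1A, a further metal-binding isoform, had 6.28 and 8.09 FPKM in siControl, 5.45 and 5.47 FPKM in siUPF1, 3.41 and 4.81 FPKM in MYC, and 3.69 and 2.76 FPKM in MYC-UPF1. From siControl to MYC it changed by -0.68 (limma adjusted p = 0.00129) and MT1L, a pseudogene, by -0.63 (limma adjusted p = 0.00196). MT1A also fell after depletion, by 0.33 (limma adjusted p = 0.196), while MT1L had a difference of -0.21. After overexpression the differences were -0.27 for MT1A and -0.067 for MT1L, and neither passed. The siRNA libraries lay above the plasmid libraries for both, as for the 6 members, and the ratio of mean FPKM, siControl over MYC, was 1.75 for MT1A.

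Zinc transporters moved in 2 directions between the control groups. Of 6 exporters of the SLC30 family tested, 4 fell and 0 rose, and of 11 importers of the SLC39 family, 8 rose and 0 fell, beside 25.6% of all genes that fell and 15.4% that rose. The exporters that fell included SLC30A1, the plasma membrane zinc exporter, by 0.56 (limma adjusted p = 0.00135), SLC30A9 by 0.31 (limma adjusted p = 0.0416) and SLC30A7, which loads zinc into the secretory pathway, by 0.27 (limma adjusted p = 0.0978). SLC30A1 stood at 14.55 ± 1.18 FPKM in siControl and 9.584 ± 0.902 FPKM in MYC (SD, n = 2).

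The count of exporters that fell was 2 with quantile normalization or median centring, nearer to the share of all genes, and SLC30A7 was no longer among them. After the GC and length correction 1 fell, SLC30A1, and 1 rose. Importers that rose were 8 under each of these, joined by 1 that fell after the GC and length correction. The importers were led by SLC39A10, which brings zinc into the cell, at 0.81 (limma adjusted p = 0.000141), SLC39A7, which releases zinc from the endoplasmic reticulum, at 0.48 (limma adjusted p = 0.00129), and SLC39A11 at 0.39 (limma adjusted p = 0.0128). SLC39A10 rose from 4.842 ± 0.407 FPKM to 9.33 ± 1.82 FPKM (SD, n = 2).

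The same families were read after UPF1 depletion, where 5.51% of all genes fell and 16.0% rose. There 1 of 6 exporters fell, SLC30A1 by 0.37 (limma adjusted p = 0.179), and 4 of 11 importers rose with 0 falling, a count of 4 in each scaling, with 1 fall after the GC and length correction. That correction also changed which importers rose, since SLC39A5 no longer passed, at 0.14, and SLC39A10 did, at 0.32. These rises were led by SLC39A7 at 0.58 (limma adjusted p = 0.0896), SLC39A11 at 0.51 (limma adjusted p = 0.0804) and SLC39A5 at 0.37 (limma adjusted p = 0.147). After overexpression 0 exporters and 0 importers passed the unadjusted threshold in limma. With the GC and length correction 1 exporter fell there, SLC30A1 (-0.20).

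Genes known as MTF1 targets outside the family moved in both directions between the control groups. They include SLC39A10, which MTF1 represses, so counts of falls and rises do not measure whether they followed the metallothioneins. Of 7, a list that shares SLC30A1 and SLC39A10 with the transporters, 3 fell and 2 rose from siControl to MYC, beside 25.6% and 15.4% of all genes. These counts changed with scaling, to 2 that fell and 3 that rose with quantile normalization or the GC and length correction. They were 2 and 4 with median centring. SLC39A10, which MTF1 represses, rose as given above. PGF, a placental growth factor, rose by 0.67 (limma adjusted p = 0.000368), and GCLC, the catalytic subunit of the first enzyme of glutathione synthesis, fell by 0.56 (limma adjusted p = 0.00125). After depletion 3 rose and 2 fell (3 and 3 with quantile normalization or median centring, 4 and 3 after the GC and length correction), with PGF at 0.78 (limma adjusted p = 0.0793), the mitochondrial thioredoxin reductase TXNRD2 at 0.59 (limma adjusted p = 0.0835) and the selenoprotein SELENOW at 0.53 (limma adjusted p = 0.0731). After overexpression HAMP, which encodes the iron hormone hepcidin, fell by 0.34 (limma adjusted p = 1), and it no longer passed the unadjusted threshold after the GC and length correction (-0.31). That correction instead gave a fall of SLC30A1 (-0.20) and a rise of GCLC (0.17).

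Of 9 copper genes tested from siControl to MYC, 1 rose and 2 fell, shares near those of all genes (15.4% and 25.6%). The copper-transporting ATPase ATP7B rose by 0.42 (limma adjusted p = 0.00836), and the copper chaperones COX17 and ATOX1 fell by 0.34 (limma adjusted p = 0.00892) and 0.21 (limma adjusted p = 0.0913). ATOX1 no longer passed the unadjusted threshold with median centring (-0.13) or the GC and length correction (-0.098). After depletion and after overexpression 0 of 10 passed an unadjusted p of 0.05 in limma. With the GC and length correction 1 fell after overexpression, COMMD1 (-0.20).

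Oxidative stress genes fell with the metallothioneins between the control groups. Of 10, 8 fell and 0 rose, beside 25.6% and 15.4% of all genes, and this was the count with quantile normalization and median centring too. GCLM, the other subunit of the glutathione synthesis enzyme, had 18.9 and 19.6 FPKM in siControl and 8.55 and 7.38 FPKM in MYC, and fell by 1.18 (limma adjusted p = 2.61e-07). SLC7A11, the cystine importer, fell by 0.78 (limma adjusted p = 0.000414) and HMOX1, which degrades haem, by 0.67 (limma adjusted p = 0.000234). After depletion 2 of 10 fell, beside 5.51% of all genes, the thioredoxin reductase TXNRD1 and GCLM, each by 0.35 (limma adjusted p = 0.151 and 0.206), and the count was 5 with quantile normalization and 7 with median centring. After overexpression 0 of 10 passed in limma. There 1 fell with quantile normalization, FTH1 (-0.21), and 1 rose after the GC and length correction, GCLC (0.17).

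Genes were ranked by how close their profile over the 8 libraries lay to that of the metallothionein sum, as the root mean square difference of log2(FPKM + 1) after centring, among 7749 genes with a mean of at least 5 FPKM and without the members. The nearest were IL32, a cytokine, at 0.128, UBD, a ubiquitin-like modifier, at 0.166, HABP2, a secreted protease, at 0.18, and the chemokines CXCL1 at 0.194 and CXCL5 at 0.246. The median gene lay at 0.922. IL32 had 15.9 and 15.6 FPKM in siControl, 13.4 and 15.4 FPKM in siUPF1, 3.76 and 3.65 FPKM in MYC, and 3.73 and 2.55 FPKM in MYC-UPF1. These genes share the drop from siRNA to plasmid libraries, which makes up most of the profile.

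**Figure D4:**
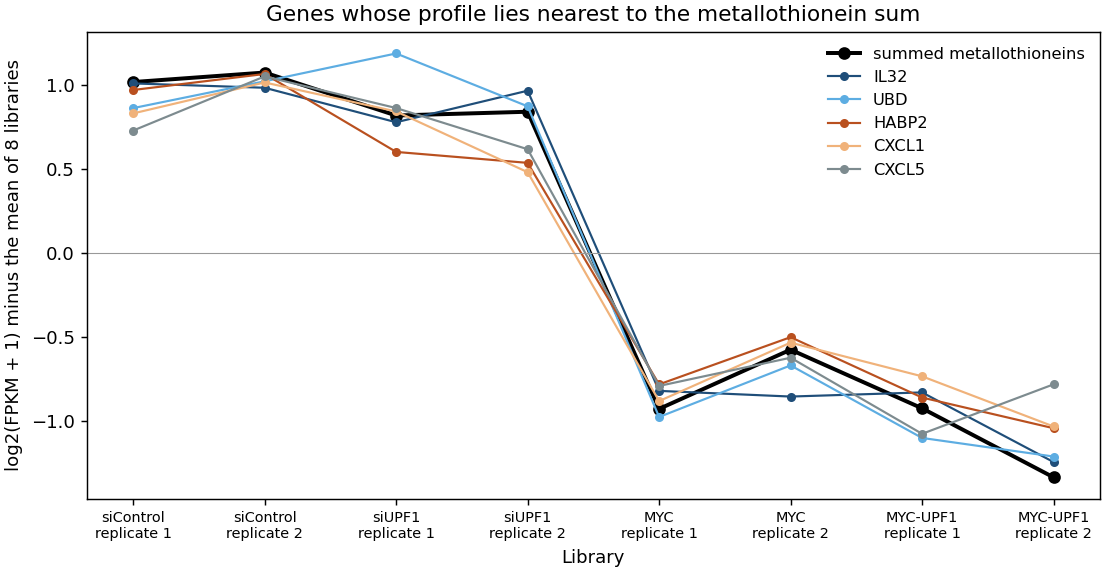
Level of 5 genes and of the summed metallothioneins as log2(FPKM + 1) minus its mean over the 8 libraries. Each point is a library and lines only join points of 1 gene. All 6 profiles lie above 0 in the siRNA libraries and below 0 in the plasmid libraries.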

How the data were processed

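RNA of Huh7 cells was sequenced from TruSeq Stranded mRNA libraries. The authors trimmed the reads, aligned them to hg19 (GRCh37) with HISAT2 2.1.0, assembled transcripts with StringTie 1.3.4d and NCBI annotation, and deposited FPKM per gene and library. The series tables and single-library files differed in 0 values. No whole reads could be recovered (the commonest ratio between libraries covered 1.16% of 1123 low genes), so depth is unknown. Here log2(FPKM + 1) was fitted with limma 3.58.1 (R 4.3.3; lmFit, eBayes with trend) and genes whose FPKM averaged 0.5 or more in the libraries compared were tested. MYC against siControl shares its libraries with the other comparisons. The method was tested on simulated data. The members and lists were chosen with earlier results of these data known. All members, UPF1, the 3 largest changes called per list and the 5 nearest profiles were named. Coding sequences are those of the GENCODE 44 transcript with most cysteine codons. Alternatives were another pseudocount, FPKM minimums, scaling, loess correction for GC content and length, all libraries in 1 fit, a replicate block and libraries left out. Python 3.11.15, pandas 2.3.3 and matplotlib 3.10.9 were used.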

Additional observations from a re-analysis of the deposited data

How the results depend on the processing

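From siControl to MYC, 6 of 7 genes fell in every setting, or 4 of 4 tested at a mean FPKM of at least 5, and the summed log2 ratio of -1.79 ranged from -1.98 to -1.63 with each library left out. The depletion count of 2 became 4 with quantile normalization, 5 with median centring and 7 after GC and length correction, and ranged from 0 to 5 with each library left out. The overexpression count of 3 became 1 (MT1E) with no FPKM minimum and 2 (MT1E and MT1X) with quantile normalization or median centring, and ranged from 0 to 5. The count for the difference of effects, 0, became 1 with quantile normalization and 1 after GC and length correction (MTF1 in both), and ranged from 0 to 1, with MT1X called without MYC replicate 1 and MT2A without MYC-UPF1 replicate 1. The cause was not tested. The depletion log2 ratio of the summed FPKM, -0.22, became -0.26 without MT2A and -0.15 once divided by the library sum. With each library left out, MT1G ranged from -0.41 to 0.0045 in depletion and from -0.46 to 0.32 in overexpression. The difference of effects changed sign for MT1E at a pseudocount of 0.1 (0.0072) and for MT1F after GC and length correction (-0.098). Leaving libraries out it ranged from -0.11 to 0.10 for MT1E, -0.078 to 0.27 for MT1F, -0.53 to 0.25 for MT1G, -0.46 to 0.013 for MT1M, -0.01 to 0.39 for MT1X and -0.024 to 0.52 for MT2A. A fit with 1 library in a group assumes that it varies like the others.

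The deviations of same-numbered libraries from their group means correlated at -0.129 for depletion, -0.569 for overexpression and 0.00999 for the control groups, so the numbers were not taken as pairs. With the replicate block the counts were 2 for depletion, 2 for overexpression, 6 for MYC against siControl and 0 for the difference of effects. A crossed replicate block, chosen after seeing the data, gave 2 for depletion, 4 for overexpression and 0 for the difference of effects. Of the 4, 2 (MT2A and MT1X) also passed an adjusted p of 0.05 in limma. Over all 13251 genes of that overexpression fit the lower calls became 879, from 107, and those at the adjusted threshold 32, from 1. The block was picked from these same libraries, so these passes are not separate evidence. With 2 libraries a group and no counts, neither depth nor counting error can be stated. Taking each comparison alone, the widest 95% interval among the 7 genes was that of MT1M in depletion and of MT1G in overexpression. In the difference of effects it was that of MT1G, -0.90 to 0.63.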

Other observations

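Metallothionein genes are also induced by glucocorticoids, and a list of 8 such genes was read beside them. From siControl to MYC, 2 rose and 4 fell, beside 15.4% and 25.6% of all genes. The clock gene PER1 rose by 0.46 (limma adjusted p = 0.00906) and TSC22D3, which encodes the anti-inflammatory protein GILZ, by 0.37 (limma adjusted p = 0.0192), while ZFP36, which destabilizes mRNAs, fell by 0.27 (limma adjusted p = 0.103). With quantile normalization, median centring or the GC and length correction 1 of the list fell. After depletion 2 rose and 2 fell, beside 16.0% and 5.51% of all genes. These counts became 1 and 2 with quantile normalization or median centring, and 1 and 3 after the GC and length correction. The largest changes called were TSC22D3 at 0.65 (limma adjusted p = 0.0584), the kinase SGK1 at -0.44 (limma adjusted p = 0.184) and FKBP5, a chaperone of the glucocorticoid receptor, at -0.33 (limma adjusted p = 0.129). After overexpression 0 of 7 passed an unadjusted p of 0.05 in limma.

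Of 12 hepatocyte genes, 6 rose and 2 fell from siControl to MYC, beside 15.4% and 25.6% of all genes, 1 rose and 1 fell after depletion, and 0 passed an unadjusted p of 0.05 in limma after overexpression. From siControl to MYC the counts became 6 and 4 with quantile normalization, 8 and 2 with median centring and 8 and 0 after the GC and length correction. For overexpression 1 rose with quantile normalization and 1 after the GC and length correction. TF, the plasma iron carrier, had 96.4 and 106 FPKM in siControl and 153 and 147 FPKM in MYC. Of 4 markers of other cell types tested, PDGFRB, a stromal receptor, rose from siControl to MYC by 0.27 (limma adjusted p = 0.0842), which became 0.054 and did not pass after the GC and length correction, and 0 passed in limma after depletion or overexpression.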
